A study of Mus musculus with 9 samples.

Results

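The interferon-stimulated genes described here are 37 mouse genes named one by one as genes known to be induced by interferons. The rule itself uses no measured value, but the members were chosen with earlier results of these data known. Of the 37, 35 matched at least 1 array probe, and 34 were tested among the 17742 genes that passed the filter on dim probes. No probe accession matched Mx1 or Mx2, and Oas3, an oligoadenylate synthetase, was too dim to be tested.

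Cells make interferons when sensors find viral or misplaced nucleic acid, or when lymphocytes are activated. Type I and type III interferons act through the kinases JAK1 and TYK2 on a complex with STAT2 and IRF9 that binds the interferon-stimulated response element (ISRE), while the interferon gamma signal acts at the gamma-activated site (GAS). Many of the induced proteins block viruses or intracellular bacteria, and in the kidney such genes are known to be expressed both by resident epithelium and endothelium and by leukocytes that enter injured tissue.

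Gene expression was measured on 9 single-colour microarrays, each with RNA from 1 whole left kidney of a male mouse aged 10 weeks on a mixed background. All 9 mice carried the same genotype, given in the labels as ISAM (Epo–/–::3.3K-Epo3'-Tg458), a line that lacks the endogenous erythropoietin gene and carries an erythropoietin transgene, so no wild-type kidney was among them. The 3 arms were ClipR-14 (ureter clipped for 2 days, clip then taken off for 12 days; 3 kidneys), Clip (ureter clipped for 2 days; 3 kidneys) and control (2 sham-treated kidneys and 1 kidney of an untreated mouse). The labels do not give the day on which control kidneys were taken, and they list the kidneys only as separate samples, so p-values measure the spread between these samples. Each of 3 slides held 1 array of every arm, and the slide with the untreated kidney was scanned on a different date from the other 2. The 75th percentile of the intensity lay between 320 and 439 on the 9 arrays, no spot was saturated, and 52% to 57.5% of probes were well above background. Pairs of arrays within an arm had correlations of r = 0.979 to 0.99 over all tested genes, ClipR-14 arrays with control arrays 0.977 to 0.986, and Clip arrays with control arrays 0.923 to 0.938. All 12 tubule and podocyte markers listed as defining kidney tissue passed the filter and were tested.

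Before the values, upstream sequences of 9 members are given, since they hold the letters to which the interferon-activated factors are known to bind. They are the 160 bases before the annotated gene start in RefSeq's table for GRCm38.p6, written 5′ to 3′ on the gene's own strand, with matches in capitals. The letters searched on both strands were GAAA repeated after any 2 bases for the ISRE, and TTC followed by GAA after any 3 bases for the GAS, which reads the same on both strands. Isg15, Ifit1 and Ifit3 stand for members with ISRE matches alone, Bst2, Gbp7 and Igtp for members with both, and Irf1 for a GAS match alone. Gbp2 is shown for the largest change of the list, and Rsad2 as the called exception after release.
Isg15 (chr4:156200819-156200978, minus strand): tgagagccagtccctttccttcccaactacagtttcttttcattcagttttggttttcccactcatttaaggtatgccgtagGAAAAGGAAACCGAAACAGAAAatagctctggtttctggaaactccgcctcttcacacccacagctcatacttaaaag
Ifit1 (chr19:34640729-34640888, plus strand): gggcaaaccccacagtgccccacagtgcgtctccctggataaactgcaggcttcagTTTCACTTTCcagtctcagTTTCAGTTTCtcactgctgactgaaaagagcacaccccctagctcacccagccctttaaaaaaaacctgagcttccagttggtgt
Ifit3 (chr19:34583369-34583528, plus strand): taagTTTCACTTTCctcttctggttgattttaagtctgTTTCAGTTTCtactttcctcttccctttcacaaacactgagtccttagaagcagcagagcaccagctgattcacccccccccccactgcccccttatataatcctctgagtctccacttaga
Bst2 (chr8:71537473-71537632, minus strand): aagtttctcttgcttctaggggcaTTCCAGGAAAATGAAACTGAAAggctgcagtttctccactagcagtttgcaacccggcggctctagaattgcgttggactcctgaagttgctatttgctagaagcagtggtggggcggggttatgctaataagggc
Gbp7 (chr3:142530176-142530335, plus strand): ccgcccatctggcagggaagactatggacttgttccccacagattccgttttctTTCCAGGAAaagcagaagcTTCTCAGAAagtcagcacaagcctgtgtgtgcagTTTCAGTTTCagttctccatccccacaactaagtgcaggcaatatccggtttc
Igtp (chr11:58199396-58199555, plus strand): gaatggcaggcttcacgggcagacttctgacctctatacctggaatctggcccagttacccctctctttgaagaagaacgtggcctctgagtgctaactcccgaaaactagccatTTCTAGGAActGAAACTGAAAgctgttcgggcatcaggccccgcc
Irf1 (chr11:53769854-53770013, plus strand): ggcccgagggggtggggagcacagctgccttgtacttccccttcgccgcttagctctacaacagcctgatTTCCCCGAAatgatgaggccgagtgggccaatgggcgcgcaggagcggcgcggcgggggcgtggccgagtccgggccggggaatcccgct
Gbp2 (chr3:142620503-142620662, plus strand): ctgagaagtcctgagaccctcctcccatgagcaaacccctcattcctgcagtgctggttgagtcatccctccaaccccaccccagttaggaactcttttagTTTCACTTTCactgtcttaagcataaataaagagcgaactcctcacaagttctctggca
Rsad2 (chr12:26456453-26456612, minus strand): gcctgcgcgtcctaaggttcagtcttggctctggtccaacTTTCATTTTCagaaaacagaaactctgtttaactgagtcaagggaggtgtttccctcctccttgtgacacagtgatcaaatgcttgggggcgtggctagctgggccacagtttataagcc
Isg15 held 3 overlapping ISRE matches in a row, beginning 78, 72 and 66 bases before the start. Ifit1 held 2, beginning 104 and 85 bases before it, and Ifit3 held 2, at 156 and 122 bases. In Bst2 the GAS match at 136 bases runs into the first of 2 ISRE matches, at 130 bases. Gbp7 held GAS matches at 106 and 87 bases and an ISRE match at 53 bases, and Igtp held a GAS match at 45 bases and an ISRE match at 34 bases. Irf1 held 1 GAS match at 90 bases, Gbp2 1 ISRE match at 59 bases, and Rsad2 1 ISRE match at 120 bases. The RefSeq table of upstream sequences, separate from the gene table used for names, had entries for 26 of the 37 members, with 32 windows of 250 bases. An ISRE match stood in 13 of these windows (40.6%), against 2.98% of all 32851 windows of that length. A GAS match stood in 7 of the 32 (21.9%), against 7.02% of all windows. A match describes letters only.

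Clip kidneys, taken while the ureter was obstructed, were compared with control kidneys. Of the 34 tested interferon-stimulated genes, 31 were higher in Clip kidneys at a Benjamini-Hochberg adjusted p under 0.05 in limma, and 0 were lower, where 21.4% of all tested genes were called higher, 27.5% lower and 48.9% either way. The median change of the 34 was 1.31 on the log2 scale, against -0.09 over all tested genes. In 29 members all 3 Clip arrays lay above all 3 control arrays, which held for 25.4% of all genes. The members rose on each slide: the median difference was 1.27, 1.40 and 1.28 on slides 1, 2 and 3, and 30 members were higher on all 3 slides, against 32.5% of all genes. In a whole kidney, more RNA per cell and more cells that carry the RNA cannot be told apart. The 3 members not called were Rsad2, Trim25 and Ifi44.

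**Figure D1:**
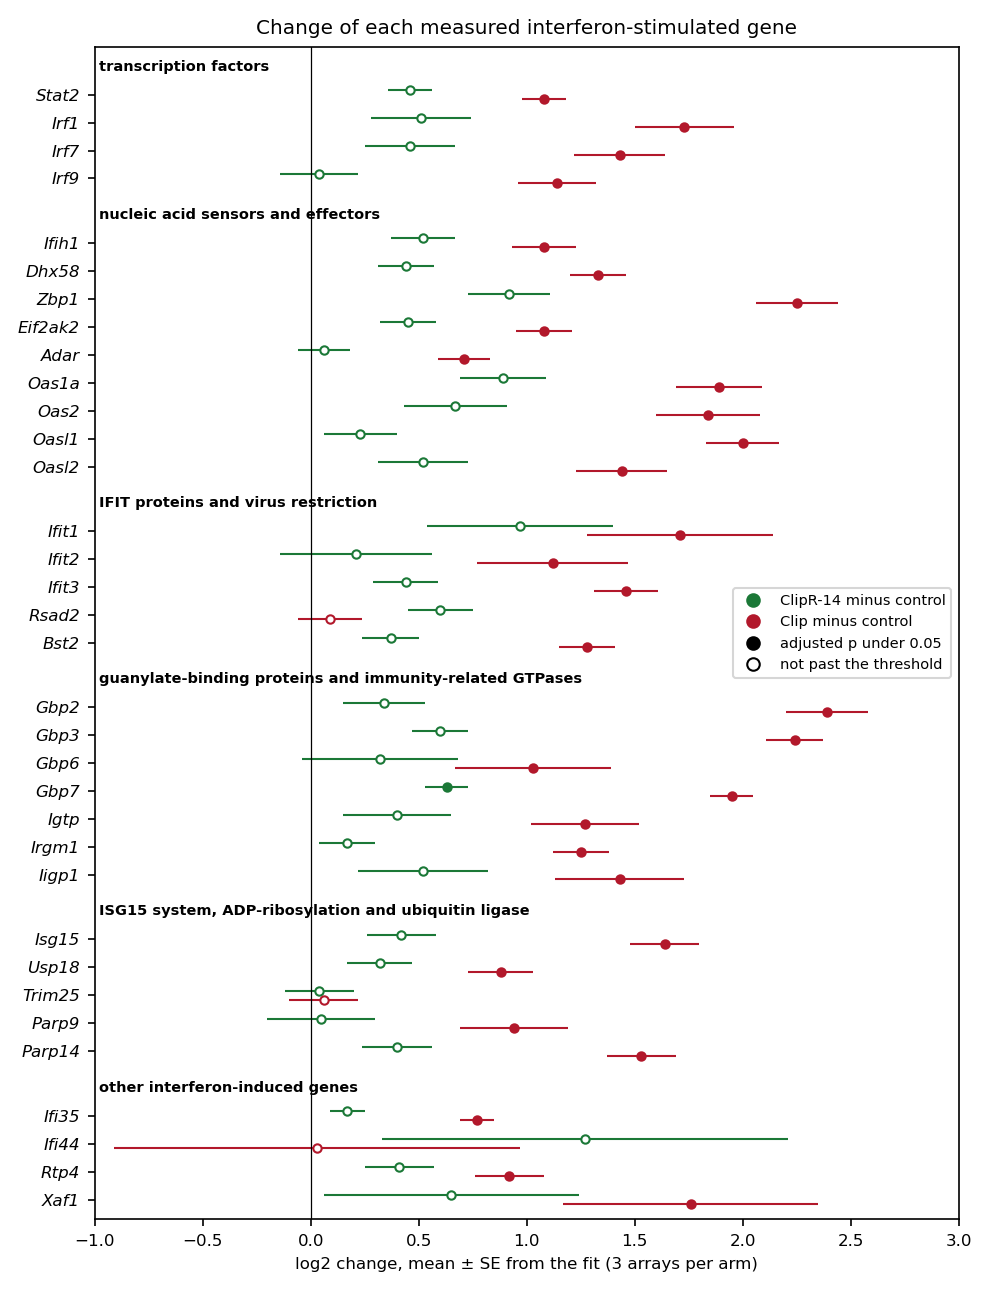
Change of each of the 34 tested interferon-stimulated genes on the log2 scale (horizontal axis), grouped by role, with the standard error of the fit. Green, ClipR-14 minus control; red, Clip minus control; filled points passed the adjusted threshold. Of the red points 31 are filled and of the green points 1, and all 34 green points lie right of 0.

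The transcription factors of the list all rose in Clip kidneys. Levels are log2 intensities with each array's 75th percentile set to 0, and can be compared between arrays for 1 gene but not between genes. Irf7, the factor that amplifies type I interferon production, had levels of 0.09, 0.00 and -0.37 in Clip kidneys, against -1.12, -1.54 and -1.91 in control kidneys. The Clip and control values did not overlap, and the log2 change was 1.43 ± 0.21 (SE, n = 3 each; limma adjusted p = 0.00062). Irf1, an early-response factor that is strongly induced by interferon gamma, had levels of 4.06, 4.50 and 3.92 in Clip kidneys, against 2.05, 2.69 and 2.55 in control kidneys. Every Clip kidney was again above every control kidney, with a 3.32-fold difference of means. Stat2, a signal carrier of the type I response, had levels of 0.68, 0.74 and 0.46 in Clip kidneys and -0.43, -0.50 and -0.42 in control kidneys, a 2.11-fold difference. Irf9, the DNA-binding partner of STAT2, was 2.21-fold higher in Clip kidneys. Its within-slide differences were 1.63, 1.30 and 0.49 on slides 1, 2 and 3, the smallest on the slide with the untreated kidney.

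All 9 tested sensors and effectors of foreign nucleic acid rose in Clip kidneys, by 0.71 to 2.25 on the log2 scale. Zbp1, a sensor of Z-form nucleic acid that can trigger necroptosis, had levels of 0.15, 0.52 and 0.14 in Clip kidneys, against -1.87, -2.28 and -1.77 in control kidneys. The arms lay far apart, a 4.74-fold difference. Oasl1, an oligoadenylate synthetase-like protein that restrains Irf7 translation in mice, had levels of 0.15, 0.43 and 0.07 in Clip kidneys and -1.53, -1.99 and -1.83 in control kidneys. The difference was larger than the spread in either arm (log2 change 2.00 ± 0.17, SE, n = 3 each; limma adjusted p = 3.4e-05). Oas1a and Oas2, synthetases whose product activates the RNA-cutting enzyme RNase L, were 3.71-fold and 3.57-fold higher. The RNA helicase gene Ifih1 (MDA5) was 2.12-fold higher, its relative Dhx58 (LGP2) 2.52-fold, and Eif2ak2 (PKR, a kinase that stops translation when it binds double-stranded RNA) 2.11-fold. Adar, the enzyme that edits adenosine in double-stranded RNA, had the smallest change of the group, 1.63-fold. Oas1a has near-identical copies in the mouse genome, and cross-hybridisation of its probe was not tested.

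Among the genes that restrict viruses, 4 of 5 tested rose in Clip kidneys. Ifit3, which binds other IFIT proteins that recognise viral RNA, had levels of 3.49, 3.20 and 3.30 in Clip kidneys, against 1.96, 1.64 and 2.01 in control kidneys. The arms did not overlap, with a 2.74-fold difference. Bst2 (tetherin), which holds budding virus particles to the cell surface, had levels of 4.09, 3.96 and 3.75 in Clip kidneys and 2.79, 2.66 and 2.50 in control kidneys, a 2.44-fold difference. Ifit1, which binds RNA that lacks the host's cap methylation, was 3.26-fold higher over all control arrays, and its log2 change was 1.14 against the shams alone, in place of 1.71. The untreated kidney had the lowest Ifit1 level, -4.82, against -3.00 and -3.23 in the shams, and was not well above background there. Ifit2 levels of -2.43, -2.06 and -1.72 in Clip kidneys overlapped those of -3.84, -2.36 and -3.37 in control kidneys, the first of which was not well above background. Its change of 1.12 (limma adjusted p = 0.0292) missed the threshold in 7 of the alternatives, with the shams alone among them (adjusted p = 0.0767). Rsad2 (viperin), an enzyme that makes a chain-terminating nucleotide, had levels of 0.77, 0.95 and 0.48 in Clip kidneys, against 0.68, 0.74 and 0.53 in control kidneys. The Rsad2 values overlapped, with a log2 change of 0.09 ± 0.15 (SE, n = 3 each; limma adjusted p = 0.66).

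The guanylate-binding proteins and immunity-related GTPases, which attack the membranes around intracellular bacteria and parasites and are strongly induced by interferon gamma, all rose in Clip kidneys (7 of 7). Gbp2 had the largest change of the whole list, with levels of 2.69, 3.13 and 2.82 in Clip kidneys against 0.12, 0.53 and 0.82 in control kidneys. Clip kidneys were 5.24-fold higher (log2 change 2.39 ± 0.19, SE, n = 3 each; limma adjusted p = 2.6e-05). Gbp3 was 4.72-fold higher, and Gbp7 3.85-fold higher with within-slide differences between 1.83 and 2.02. Irgm1, a regulator of autophagy and of the other GTPases, was 2.37-fold higher, Igtp 2.41-fold and Iigp1 2.70-fold. Gbp6 was 2.04-fold higher, but its limma adjusted p of 0.0428 rested on few arrays. Its within-slide differences were 1.70, 1.21 and 0.17, and without sham replicate 1 the change was 0.59 (adjusted p = 0.0743). The Gbp genes and Irgm1 belong to families with closely similar copies, and cross-hybridisation was not tested.

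Of the 5 genes of ISG15 conjugation, ADP-ribosylation and ubiquitin ligation, 4 rose in Clip kidneys. Isg15, the ubiquitin-like modifier itself, had levels of 1.58, 1.40 and 1.21 in Clip kidneys, against 0.06, -0.48 and -0.30 in control kidneys. The arms did not overlap, and the difference was 3.11-fold. Parp14, an ADP-ribosyltransferase, was 2.88-fold higher, and its 3 probes gave changes of 1.53, 1.42 and 1.60. Parp9 was 1.92-fold higher, a call lost with normexp (0.60, limma adjusted p = 0.0538), and Usp18, which removes ISG15 and blocks the type I receptor, 1.85-fold. Trim25, a ubiquitin ligase that activates RIG-I, had levels of 2.75, 2.64 and 2.67 in Clip kidneys, inside the control range of 2.58, 2.32 and 2.99. Its log2 change was 0.06 ± 0.16 (SE, n = 3 each; limma adjusted p = 0.78). Its dimmer probe, not used in the test, gave a difference of 0.35.

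Of the 4 remaining members, Ifi35 was 1.71-fold and Rtp4 1.89-fold higher in Clip kidneys, with no overlap between the arms. Xaf1, an inducer of cell death, and Ifi44 varied most among control kidneys. Xaf1 had levels of -0.66, 0.08 and 0.12 in Clip kidneys, against -0.56 and -1.90 in sham kidneys and -3.27 in the untreated kidney. The arms overlapped, and the change of 1.76 ± 0.59 (SE, n = 3 each; limma adjusted p = 0.0358) missed the threshold with slide as a block (adjusted p = 0.0625) and with the shams alone (1.08, adjusted p = 0.0685). Ifi44 had levels of -3.64, -3.18 and -4.89 in Clip kidneys, against -2.73 and -2.66 in sham kidneys and -6.43 in the untreated kidney. Clip replicate 3 and the untreated kidney were not well above background for Ifi44, so their values set no order between them. All 3 Clip kidneys were below both shams, and the change of 0.03 became -1.21 against the shams alone (limma adjusted p = 0.0584).

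**Figure D2:**
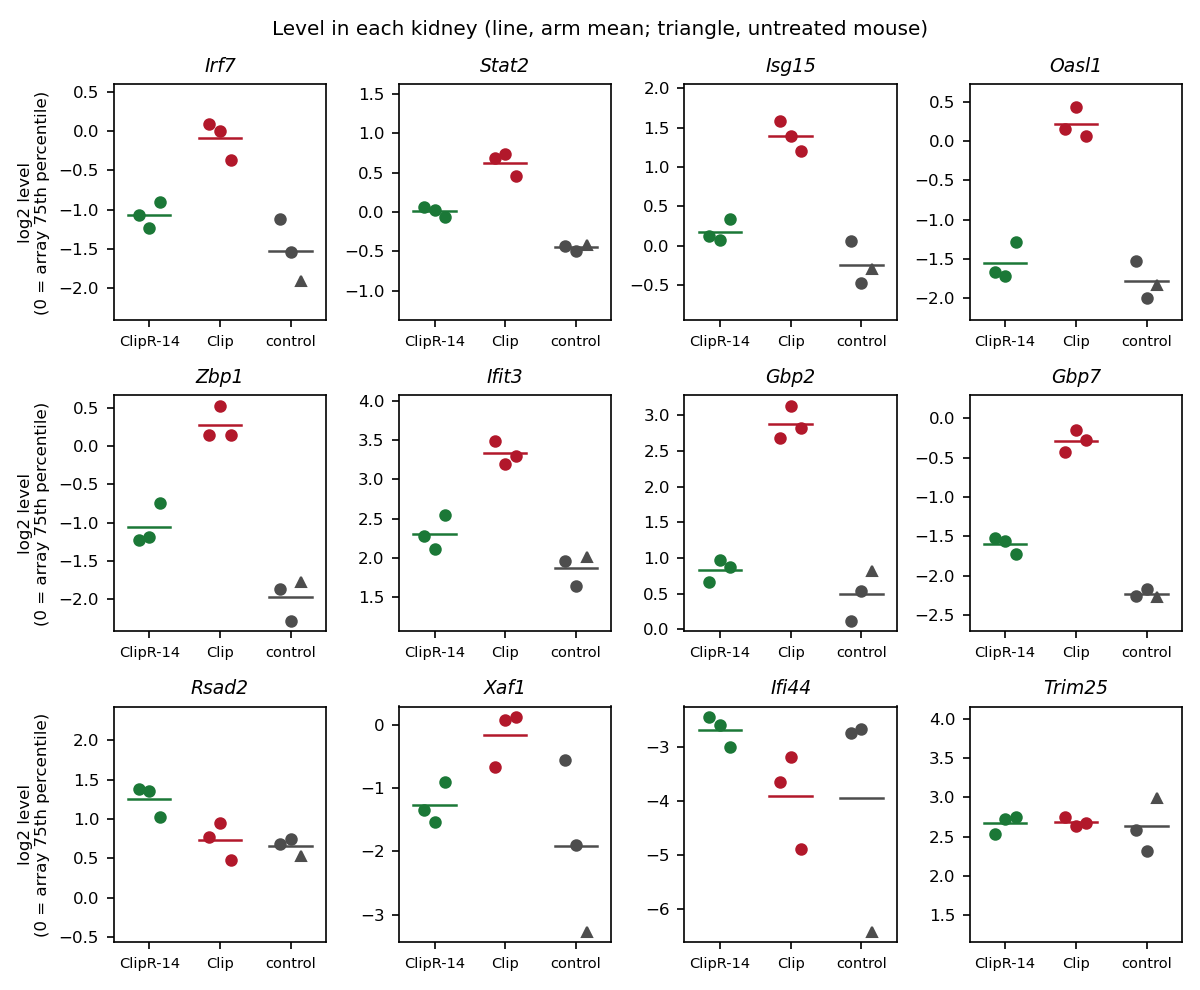
Level of 12 interferon-stimulated genes in each of the 9 kidneys, as log2 intensity with the array's 75th percentile at 0 (vertical axes, each panel with its own range). Points are kidneys, lines are arm means, and the triangle is the untreated mouse. Clip values stand clear of control values in the upper 2 rows, while Rsad2, Xaf1, Ifi44 and Trim25 overlap.

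ClipR-14 kidneys, taken 12 days after the clip came off, were compared with control kidneys to ask what remained after release. The means of all 34 members were higher in ClipR-14 kidneys, against 48.1% of all genes with a positive change, but only Gbp7 passed the limma threshold, where 1.46% of all genes were called higher, 0.372% lower and 1.83% either way. The median change of the members was 0.44, against -0.01 over all genes. In 17 members the 3 ClipR-14 arrays lay above all control arrays, which held for 13.6% of all genes, and 16 members had an unadjusted p under 0.05, against 21.5% of all genes in either direction. On all 3 slides 22 members were higher, against 24.9% of all genes. Gbp7 levels were -1.52, -1.56 and -1.72 in ClipR-14 kidneys, against -2.26, -2.17 and -2.27 in control kidneys. The arms did not overlap, with a 1.55-fold difference (log2 change 0.63 ± 0.10, SE, n = 3 each; limma adjusted p = 0.0358). That call was lost in 13 alternatives, and among the 9 that leave out 1 array it held only without Clip replicate 2 (limma adjusted p = 0.0486) or Clip replicate 3 (0.048).

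With slide as a block, 4 members were higher in ClipR-14 kidneys (limma, all genes adjusted together), namely Gbp7, Rsad2 (adjusted p = 0.0311), Gbp3 (0.0347) and Stat2 (0.0402). Calls rose over all 17742 genes as well, to 751 higher and 412 lower with the block, from 259 and 66 without it. Same-slide arrays of different arms deviated together from their arm means, as given under the processing. Without the block, Stat2 had a change of 0.46 ± 0.10 (SE, n = 3 each; limma adjusted p = 0.0558), with levels of 0.06, 0.03 and -0.06 in ClipR-14 kidneys and -0.43, -0.50 and -0.42 in control kidneys. No ClipR-14 kidney overlapped a control kidney for Stat2. Zbp1 had the highest ClipR-14 change among members whose arrays were all well above background, 0.92 ± 0.19 (SE, n = 3 each; limma adjusted p = 0.0543), and its arms also did not overlap. The other synthetases and sensors had changes between 0.06 for Adar and 0.89 for Oas1a.

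The difference between ClipR-14 and control kidneys varied with role and with slide. For the 9 sensors and effectors the median difference was 0.18, 0.67 and 0.72 on slides 1, 2 and 3, whereas for the 7 GTPases it was 0.73, 0.44 and 0.02. The same contrast stood among the control kidneys themselves. Sham 1 had the highest level of the 3 controls in 8 of the 9 sensors and effectors and the lowest level in 6 of the 7 GTPases, and the untreated kidney had the highest level in 5 of those 7. Over the 34 members the untreated kidney was above both shams in 11, below both in 12 and between them in 11. These groupings by control kidney were noticed in the values and have no test.

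ClipR-14 kidneys were then compared with Clip kidneys. Of the 34 members, 27 were lower in ClipR-14 kidneys and 1, Rsad2, was higher (limma adjusted p under 0.05), where 17.4% of all genes were called lower, 23.5% higher and 41.0% either way. The members' median change was -0.91, against 0.08 over all genes, with slide medians of -0.88, -1.14 and -0.63. In 31 members all ClipR-14 arrays lay below all Clip arrays, which held for 23.3% of all genes. The comparison shares its Clip arrays with the one of Clip against control, so both sets of changes are given side by side. All 27 genes called lower here were among the 31 called higher in Clip kidneys. With 31 of the 34 members called and the Clip arrays shared, that overlap is no separate result. In 16 of those 31 every ClipR-14 array was above every control array, against 13.6% of all genes. The 31 were called against the same control arrays, and the share among all genes called higher in Clip kidneys was not computed. In 32 of the 34 members the mean was lower in ClipR-14 than in Clip kidneys, the exceptions being Rsad2 and Ifi44. A smaller change from control in ClipR-14 than in Clip kidneys states the same thing and is no separate result. The share of all genes with a lower mean is not given here.

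Gbp2 fell most, to levels of 0.66, 0.97 and 0.87 in ClipR-14 kidneys, against 2.69, 3.13 and 2.82 in Clip kidneys. That was a 4.13-fold difference with no overlap, and the ClipR-14 levels overlapped the control levels given above. Oasl1 had levels of -1.66, -1.71 and -1.28 in ClipR-14 kidneys, against 0.15, 0.43 and 0.07 in Clip kidneys, a 3.40-fold difference. Irf9 stood at -0.61, -0.63 and -0.52 in ClipR-14 kidneys, against 0.80, 0.53 and 0.22 in Clip kidneys, and its change from control after release was 0.04 ± 0.18 (SE, n = 3 each). Zbp1 stood at -1.23, -1.19 and -0.74 in ClipR-14 kidneys, against 0.15, 0.52 and 0.14 in Clip kidneys. It lay between the Clip and control kidneys with no overlap on either side. The same held for Stat2, Gbp7, Isg15 and further members, among them Ifih1, Oas1a, Ifit3 and Gbp3. Isg15 levels were 0.12, 0.07 and 0.34 in ClipR-14 kidneys, against 1.58, 1.40 and 1.21 in Clip kidneys, a 2.33-fold difference. Ifit1, Ifit2, Gbp6 and Xaf1 had changes of -1.11 to -0.71, negative on every slide, that did not pass the threshold. Ifit2 passed it with slide as a block (-0.91, limma adjusted p = 0.0498), and all 4 passed it with only ClipR-14 and Clip kidneys in the fit (adjusted p = 0.0145 to 0.0369).

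Rsad2 ran the other way. Its levels were 1.38, 1.35 and 1.03 in ClipR-14 kidneys, against 0.77, 0.95 and 0.48 in Clip kidneys and 0.68, 0.74 and 0.53 in control kidneys. ClipR-14 kidneys were above every other kidney, 1.43-fold over Clip (log2 change 0.52 ± 0.15, SE, n = 3 each; limma adjusted p = 0.0231) and 1.52-fold over control (adjusted p = 0.0739, or 0.0311 with slide as a block). Its 3 probes gave 0.52, 0.48 and 0.50 for ClipR-14 minus Clip and 0.60, 0.45 and 0.40 for ClipR-14 minus control. The call against Clip was lost without ClipR-14 replicate 1 (adjusted p = 0.0747) or 2 (0.0773) and without Clip replicate 1 (0.0527) or 3 (0.0672).

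**Figure D3:**
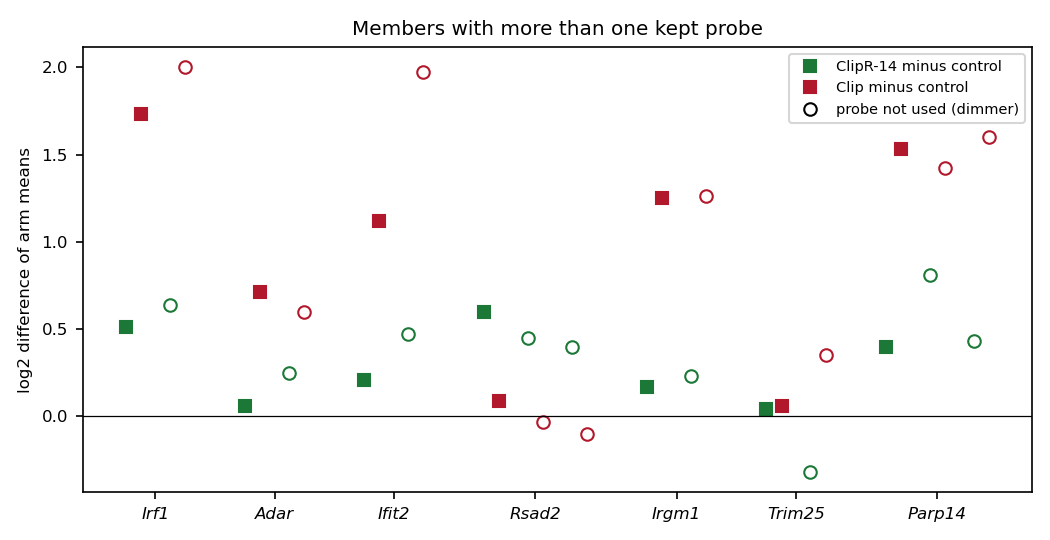
Log2 difference of arm means for every kept probe of the 7 members with more than 1 (vertical axis), with ClipR-14 minus control in green and Clip minus control in red. Squares are the probes used and circles the dimmer ones. The 3 Rsad2 probes give 0.40 to 0.60 in green and -0.10 to 0.09 in red, and the Ifit2 probes differ most in red, 1.12 against 1.97.

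Where several probes measured a member, the direction in Clip kidneys was the same in 6 of 7 genes, the exception being Rsad2, whose changes were near 0. Irf1 probes gave 1.73 and 2.00 in Clip minus control, Irgm1 probes 1.25 and 1.26, and Adar probes 0.71 and 0.60. The Trim25 probes disagreed in sign in ClipR-14 minus control, 0.04 against -0.32.

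Members with and without an ISRE match in their upstream window changed over overlapping ranges. In Clip minus control, 12 tested members with a match had changes from 0.09 to 2.39 with a median of 1.55, and 13 without had changes from 0.03 to 2.00 with a median of 1.12. Among the sequences printed above, Gbp2 has 1 ISRE match and the largest change, and Rsad2 has 1 ISRE match and the smallest change of the members with a match. The medians cover all tested members in the table of upstream sequences, not only the printed ones, and were not compared by a test.

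The genes that make and carry the interferon signal were examined as separate lists. Of 19 interferon genes, 5 were tested. Only Ifng, which encodes interferon gamma, passed the limma threshold in Clip kidneys, where 48.9% of all genes passed it in either direction. Its levels were -2.96, -3.10 and -3.95 in ClipR-14 kidneys, -3.59, -3.32 and -3.97 in Clip kidneys, and -4.98, -4.07 and -4.81 in control kidneys, where 1 of 3 control arrays was well above background. Every ClipR-14 and Clip kidney was above the highest control kidney, and the changes were 1.28 ± 0.32 (adjusted p = 0.0788) and 0.99 ± 0.32 (adjusted p = 0.0325) (SE, n = 3 each; limma). The Clip call for Ifng was lost in 7 alternatives, among them those without sham replicate 1, the untreated kidney, Clip replicate 1 or Clip replicate 2 (limma adjusted p = 0.0997, 0.086, 0.0809 and 0.108). Ifnb1, which encodes interferon beta, had no probe that passed the filter.

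Of 9 receptor and kinase genes, 6 rose in Clip kidneys and 0 fell, where 21.4% of all genes were called higher. The count of 6 was 2 with normexp background correction and 8 with slide as a block or quantile normalisation. Ifngr2, a chain of the interferon gamma receptor, had levels of 3.20, 3.43 and 3.12 in Clip kidneys, against 2.21, 2.10 and 1.86 in control kidneys. The arms did not overlap, with a 2.29-fold difference (log2 change 1.19 ± 0.12, SE, n = 3 each; limma adjusted p = 9.35e-05). Ifnlr1, the type III receptor chain, was 2.01-fold higher, and the kinase genes Jak1 and Tyk2 1.49-fold and 1.43-fold. Ifnar2, a chain of the type I receptor, was 1.39-fold higher, while Ifnar1, the other chain, had a change of 0.43 (adjusted p = 0.0544 in limma). In ClipR-14 kidneys 0 of the 9 passed the limma threshold, and 1 had an unadjusted p under 0.05, against 1.83% and 21.5% of all genes.

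Of 16 sensors and adaptors upstream of interferon, 9 rose and 0 fell in Clip kidneys, where 21.4% of all genes were called higher and 27.5% lower. Sting1, the adaptor of cytosolic DNA sensing, had levels of 2.80, 2.88 and 2.79 in Clip kidneys, against 0.38, 0.19 and 0.32 in control kidneys, a 5.76-fold difference. Its levels of 0.79, 1.01 and 1.04 in ClipR-14 kidneys were also above every control kidney, and this change of 0.65 ± 0.10 passed the threshold (SE, n = 3 each; limma adjusted p = 0.0318). That call was lost in 10 of the 18 alternatives, whose adjusted p ranged from 0.028 to 0.268. It was lost without either sham, without Clip replicate 1 or 2 and without ClipR-14 replicate 2 or 3. Cgas, the DNA sensor that feeds STING, was at least 3.91-fold higher in Clip kidneys, since no control array was well above background. No ClipR-14 array was either, so Cgas passed the filter only through the Clip arrays, where it was high. Its place among the 9 that rose is therefore no independent support. Ddx58 (RIG-I) was 2.74-fold and Ikbke, a kinase that activates interferon regulatory factors, 2.23-fold higher in Clip kidneys. Irf3, the factor those kinases activate, had a change of -0.38 (limma adjusted p = 0.0544).

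**Figure D4:**
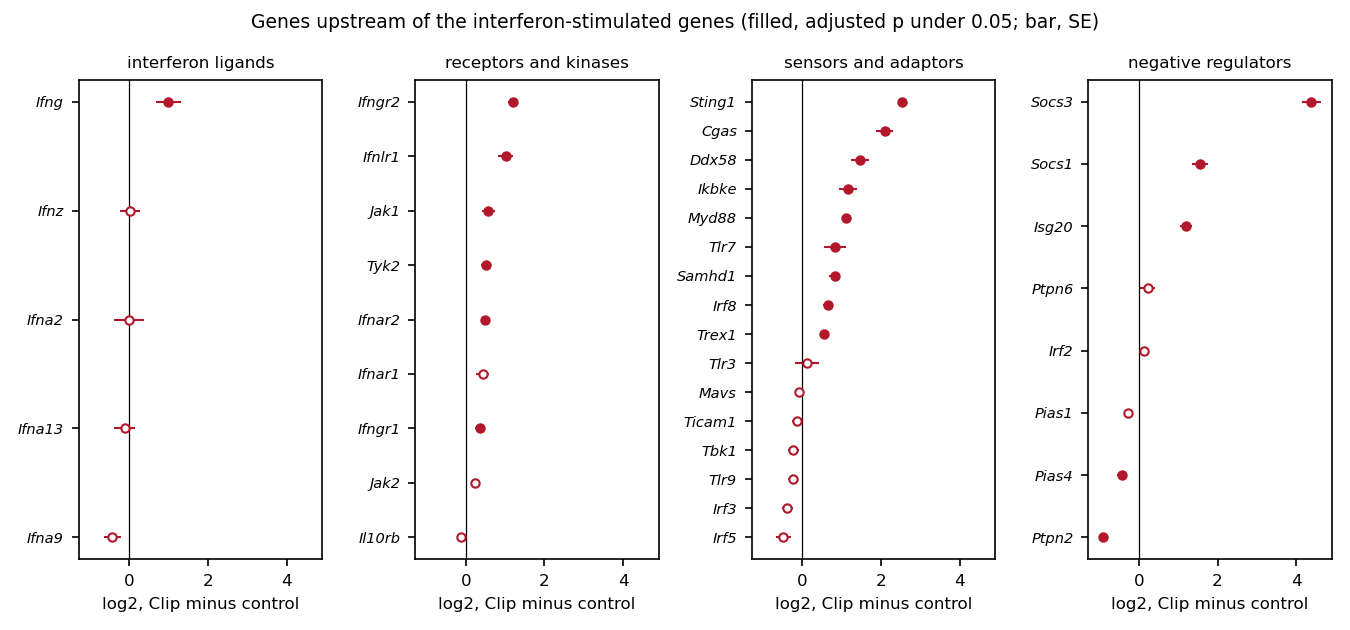
Log2 change in Clip minus control (horizontal axis) of tested genes in 4 lists upstream of the members, with the standard error of the fit and filled points for adjusted p under 0.05. Filled points number 1 of 5 ligands, 6 of 9 receptors and kinases, 9 of 16 sensors and adaptors, and 5 of 8 negative regulators. Of all tested genes 48.9% passed the same threshold in either direction.

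Of 8 tested negative regulators, 3 rose and 2 fell in Clip kidneys, where 21.4% of all genes were called higher and 27.5% lower. Socs3, an inhibitor of cytokine receptor signalling, was 20.9-fold higher, Socs1, the JAK inhibitor induced by interferon gamma, 2.94-fold, and Isg20, an exonuclease placed in that list that is itself induced by interferon, 2.30-fold. Ptpn2, a phosphatase that acts on JAK kinases, fell by 0.91 and Pias4 by 0.42 on the log2 scale, and 1 to 3 genes of the list fell when 1 array was left out. Among 38 other tested interferon-stimulated genes outside the 37, 28 rose and 2 fell, against the same shares of all genes, with a median change of 1.01. The 28 include Herc6, which was well above background on the Clip arrays alone and passed the filter only through them. The rises were led by Cxcl10, a T-cell attracting chemokine, which was 16.3-fold higher. Its levels were 1.81, 3.42 and 2.20 in Clip kidneys, against -2.01, -1.41 and -1.22 in control kidneys. Gbp5 was 5.20-fold, Slfn2 3.99-fold and Ifi47 3.80-fold higher, and the 2 that fell were Samd9l (by 0.93) and Parp10 (by 0.37 on the log2 scale), with 1 to 3 falling when 1 array was left out. In ClipR-14 minus control this list had a median of 0.44. There 0 of 38 passed the limma threshold and 20 had an unadjusted p under 0.05, against 1.83% and 21.5% of all genes. With slide as a block 6 were higher and 1 lower, where 751 and 412 of all 17742 genes were.

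Leukocyte markers moved in the same direction as the members. Of 19 tested, 11 rose and 0 fell in Clip kidneys, against 21.4% and 27.5% of all genes, with a median change of 1.40. The 11 include Itgam, which was well above background on the Clip arrays alone and passed the filter only through them. In ClipR-14 kidneys 3 markers (Ccr2, Cd14 and Fcgr1) rose, against 1.46% of all genes, with a median of 0.47 over the list. Ccr2 was not well above background on any control array or on ClipR-14 replicate 1, so the size of its rise is not known. The count of 3 was 0 without either sham or without ClipR-14 replicate 2 or 3, and 1 without Clip replicate 1 or 2 or ClipR-14 replicate 1. With slide as a block it was 7, where 751 of all 17742 genes were higher. The summed leukocyte marker intensity, on the log2 scale, lay between 6.98 and 7.12 in ClipR-14 kidneys, between 7.25 and 7.46 in Clip kidneys and between 6.88 and 7.07 in control kidneys. A single bright probe, Ly6c2, made up 76% to 90.6% of that sum on every array. Without it, a choice made after the values were seen, the sum lay between 3.87 and 4.48 in ClipR-14 kidneys, between 5.11 and 5.34 in Clip kidneys and between 3.48 and 4.36 in control kidneys. The summed intensity of the 34 members lay between 5.97 and 6.07 in ClipR-14 kidneys, between 6.80 and 7.08 in Clip kidneys and between 5.58 and 5.73 in control kidneys. Ptprc, the general leukocyte marker CD45, was 2.64-fold higher in Clip kidneys, and Adgre1, a macrophage marker, 2.83-fold. Cd68, Siglech, Flt3, Cd4, Ncr1 and Cd79a had no tested probe. Of 12 tubule and podocyte markers, 11 fell in Clip kidneys with a median of -1.66, against 27.5% of all genes. In ClipR-14 kidneys 0 passed the limma threshold and 1 had an unadjusted p under 0.05, against 1.83% and 21.5% of all genes. The part of leukocyte number or epithelial loss in the members' changes was not tested.

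**Figure D5:**
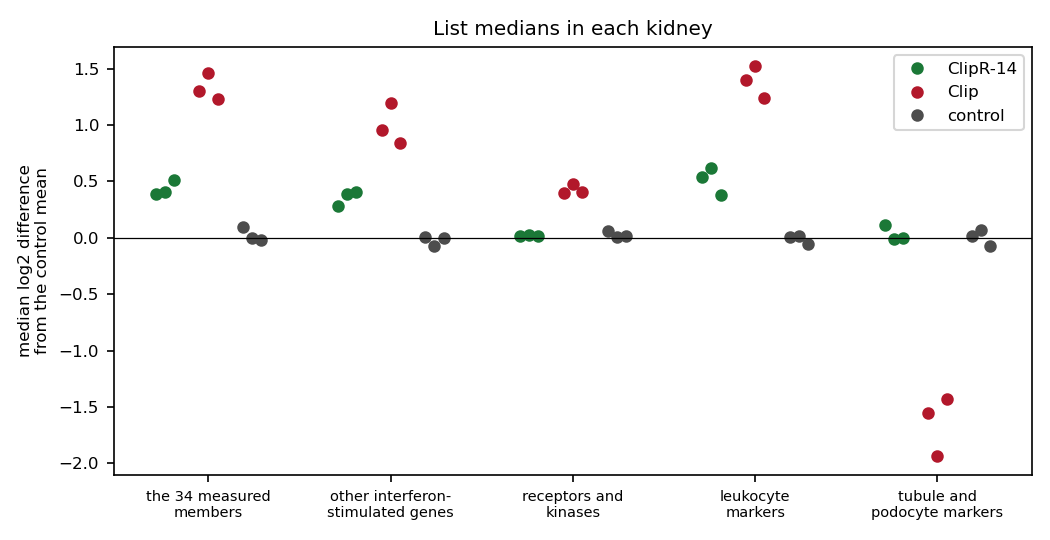
Median log2 difference from the control mean in each kidney (vertical axis) for the 34 tested members and 4 other lists, with ClipR-14 in green, Clip in red and control in grey. Member medians lie at 0.39 to 0.51 in ClipR-14, 1.23 to 1.46 in Clip and -0.02 to 0.10 in control kidneys, and leukocyte marker medians at 0.38 to 0.62, 1.24 to 1.52 and -0.05 to 0.02.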

How the data were processed

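The files are Agilent Feature Extraction output (version 10.7.3.1, per the file headers), 1 array per kidney, with Cy3-labelled RNA per the labels. The authors deposited gProcessedSignal, a background-subtracted intensity per spot that is not normalised between arrays. Probe names and accessions come from the files, and symbols from RefSeq's gene table. Spots of a probe were averaged, log2(gProcessedSignal) was taken, and each array's 75th percentile was subtracted. Of 41174 probes, 26690 had a symbol. Probes had to be well above background on at least 3 of 9 arrays, which kept 23565; 21 were then left out for outlier flags. The brightest kept probe stood for a gene, giving 17742 genes, 4725 of them known by accession alone. limma 3.58.1 (R 4.3.3; lmFit and eBayes) fitted all 3 arms together on the log2 values, with Benjamini-Hochberg adjustment over all genes and a threshold of 0.05, and was tested on simulated data.

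Members and lists were chosen with earlier results of these data known. A gene first placed in the list of receptors and kinases is not reported here. All members were to be described, with those named from other lists being genes set as key signal genes plus the largest called changes of each list. Samd9l, Parp10, Pias4 and the leukocyte markers were named after their values were seen, as was Ifnb1. A fold marked "at least" sets the brighter arm's mean against the dimmer arm's mean. Values of the dimmer arm below their array's lowest signal well above background were first raised to that signal. Deviations from arm means over all genes correlated at r = 0.161 to 0.282 in the 9 pairs of arrays on 1 slide, and at -0.239 to 0.00291 in the other 18. Replicate numbers follow the slides only in part, since the untreated kidney, numbered 1, lies on slide 3. The authors' deposited log2 value table was not used, because 0 of its rows came within 0.02 of the probe they name, while 8136 of 8142 with values came within 0.02 of some other probe. Alternatives covered background correction, scaling, filter, probe choice, control arm, arrays in the fit, blocks and each array left out. The files hold no gMeanSignal, so normexp (offset 50) used gMedianSignal. The number of arrays limits the precision.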

Additional observations from a re-analysis of the deposited data

How the results depend on the processing

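Of the 31 member calls in Clip kidneys, 27 held in all of the 18 alternatives that tested them (the strictest filter left out Ifit1). Of the 28 in ClipR-14 minus Clip, 21 held in all 17 alternatives run for that comparison, where the shams alone do not apply. For comparisons with control, the shams alone and leaving out the untreated kidney are the same fit. The 18 alternatives, and the lost calls counted above for Ifit2, Gbp7 and Ifng, include that fit under both names. Leaving out 1 array gave 28 to 30 members higher and 0 lower in Clip minus control (median 1.26 to 1.38), 0 to 1 higher and 0 lower in ClipR-14 minus control (0.36 to 0.47), and 21 to 30 lower with 0 to 2 higher in ClipR-14 minus Clip (-1.03 to -0.88).

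Normexp gave member medians of 0.97 (Clip minus control), 0.33 (ClipR-14 minus control) and -0.72 (ClipR-14 minus Clip), while the median of all genes was 0.10 in Clip minus control and -0.10 in ClipR-14 minus Clip. Quantile normalisation gave 1.48 and -1.01 for the first and last of these, and a median of all genes of 0.01 in ClipR-14 minus control. The number of members higher in ClipR-14 than control, 1 as reported, was 0 with normexp, quantile normalisation, no filter, the shams alone or only 2 arms in the fit. It was 4 with the filter on all arrays and with slide as a block, where 314 and 751 of all genes were higher. Without a filter the median of all genes in ClipR-14 minus control was 0.16, and Oas3, then tested, had 1.02 in Clip minus control (limma adjusted p = 0.173).

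The sign turned for members with small or uneven changes. With normexp, Rsad2 had -0.03 and Trim25 -0.08 in Clip minus control, Parp9 -0.10 in ClipR-14 minus control, and Trim25 0.15 and Ifi44 -0.04 in ClipR-14 minus Clip. When a gene's probes were averaged, Rsad2 had -0.02 in Clip minus control and Trim25 -0.14 in ClipR-14 minus control. With the shams alone, Ifi44 had -1.21 in Clip minus control, and Adar -0.06, Parp9 -0.01 and Xaf1 -0.03 in ClipR-14 minus control. Leaving out 1 array turned the sign of Rsad2 (-0.02 to 0.21), Trim25 (-0.09 to 0.24) and Ifi44 (-1.21 to 0.67) in Clip minus control and of Trim25 (-0.06 to 0.05) in ClipR-14 minus Clip. In ClipR-14 minus control it turned Irf9 (-0.06 to 0.21), Adar (-0.06 to 0.16), Ifit2 (-0.11 to 0.62), Gbp6 (-0.12 to 0.60), Trim25 (-0.11 to 0.22), Parp9 (-0.19 to 0.28) and Xaf1 (-0.03 to 1.32). The cause was not tested.

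With the replicate number as a replicate block, 29 members were higher in Clip kidneys and Ifit2 had -0.05 in ClipR-14 minus control. The pairing check found no shared deviation between untreated and other samples of number 1 (r = -0.209), so the numbers were not taken as pairs.

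Of all genes in ClipR-14 minus control, 259 were higher and 66 lower as reported, 0 and 1 with normexp, 88 and 27 with quantile normalisation, 11 and 1 without a filter, 0 and 0 with only 2 arms, 751 and 412 with slide as a block, and 159 and 43 with the replicate block. With only 2 arms 0 passed the limma threshold. With normexp 2512 genes were higher and 3110 lower in Clip minus control, and 2268 and 1868 in ClipR-14 minus Clip. In ClipR-14 minus Clip 4178 were higher as reported and 10515 without a filter.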
